A study of Mus musculus with 6 samples.

Results

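Cohesin is the ring-shaped protein complex that holds sister chromatids together, and germ cells entering meiosis build it from a partly different set of parts. The genes described here are Smc1b, Rec8 and Stag3, which encode the meiosis-specific subunits, beside Smc3, Smc1a, Rad21, Stag1 and Stag2, which encode the shared and somatic ones. Members were chosen by symbol: every probe set whose platform annotation gave one of these 8 symbols alone was taken, which gave 19 probe sets for 8 of the 18193 genes annotated in this way. A probe set is a group of short array probes read together as one measure of a transcript.

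The arrays held total RNA of testes from mice of 3 strains, C57BL/6, AKR/N and MRL/MpJ+/+ (MRL/MpJ from here on), all 8 weeks old, with 2 mice and 2 arrays per strain. No label ties an array to a mouse, so the spread between arrays may be in part technical. The labels name no treatment and no altered allele, so the strains differ by their whole genetic background. Values are the deposited linear intensities. They were tested with limma as log2(intensity + 16), and a difference is called where its p, adjusted over all tested probe sets by the method of Benjamini and Hochberg, was under 0.05. The comparisons share arrays, since C57BL/6 stands in both comparisons against it and MRL/MpJ against AKR/N reuses the other arrays, so they are not independent of each other.

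In the cohesin ring, a pair of SMC proteins is closed by a kleisin and bound by a STAG protein. Somatic cells use Smc1a with Smc3, the kleisin Rad21, and Stag1 or Stag2. In spermatocytes Smc1b can take the place of Smc1a, Rec8 that of Rad21, and Stag3 that of Stag1 and Stag2. These meiotic complexes organise the chromosome axes on which homologous chromosomes pair, and Rec8 at the centromeres keeps sister chromatids together until the second division. Male mice without Smc1b, Rec8 or Stag3 are known to be sterile, with spermatocytes arrested in prophase. A further meiotic kleisin, Rad21l, was not analysed here.

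The promoters of the meiotic members are shown because the transcription factor E2f6, whose own transcript differed between the strains, is known to silence Smc1b and Stag3 in somatic cells of the mouse. Each line gives 120 bases, from 100 bases before the annotated start to the first 20 bases of the transcript, read 5′ to 3′ on the gene's strand from RefSeq on GRCm38.p6, the C57BL/6J reference. The alleles of the other strains were not analysed here. Capitals mark TCCCGC, the letters commonly given as the core of an E2F6 site, searched on both strands.
Smc1b, chr15:85131938-85132057, minus strand: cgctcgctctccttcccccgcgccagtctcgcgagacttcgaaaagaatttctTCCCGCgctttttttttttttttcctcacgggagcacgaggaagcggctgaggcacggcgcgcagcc
Rec8, chr14:55618066-55618185, plus strand: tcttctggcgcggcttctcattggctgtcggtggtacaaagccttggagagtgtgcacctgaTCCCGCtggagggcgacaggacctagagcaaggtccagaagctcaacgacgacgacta
Stag3, chr5:138280409-138280528, plus strand: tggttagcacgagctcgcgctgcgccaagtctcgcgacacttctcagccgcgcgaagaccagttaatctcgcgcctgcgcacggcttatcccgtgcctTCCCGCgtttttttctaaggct
Stag1, chr9:100643348-100643467, plus strand: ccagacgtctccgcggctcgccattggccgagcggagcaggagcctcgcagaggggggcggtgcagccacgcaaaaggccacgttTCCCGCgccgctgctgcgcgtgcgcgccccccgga

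All 4 matches lay on the gene's own strand, with the first letter 47 bases before the start in Smc1b, 38 in Rec8, 2 in Stag3 and 15 in the somatic gene Stag1. Of the 6 members with a promoter in the table, 4 held the letters in such a stretch, among them 3 of 3 meiotic genes, against 11% of all 32851 promoters. The stretches of Smc3 and Smc1a held no match. In the whole 300-base windows, 6 of 6 members held it, against 20.0% of all promoters. Rad21 and Stag2 were the members without a promoter entry. The E-box CACGTG was found in 1 member's window, that of Stag3, 170 bases before its start, against 7.15% of all windows. A match of 6 letters is a description of the sequence and not a binding site.

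Between strains, the meiotic subunits did not move as a unit. Smc1b was highest in C57BL/6 and lower in both other strains, Rec8 was lower in MRL/MpJ, and Stag3 lay at about the same level in all 3. Of the shared and somatic subunits, none passed the test at its brightest probe set, and a second probe set of Rad21 was higher in AKR/N and MRL/MpJ than in C57BL/6. Because whole testes were measured, fewer cells of a type and less RNA per cell cannot be told apart for any of these differences.

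Smc1b encodes the SMC1 variant of meiotic cohesin. Its probe set 1449253_at read 1241.5 and 1268.0 in C57BL/6, 768.3 and 881.1 in MRL/MpJ, and 687.8 and 487.9 in AKR/N. Every C57BL/6 array was above every MRL/MpJ array, and these in turn were above both AKR/N arrays, so no strains overlapped. This was the only Smc1b probe set, and how well its probes match the AKR/N and MRL/MpJ alleles was not tested. The means were 1255 ± 18.7 in C57BL/6, 825 ± 79.7 in MRL/MpJ and 588 ± 141 in AKR/N (SD, n = 2 each). On the log2 scale, Smc1b fell by 1.09 in AKR/N against C57BL/6 (SE 0.132, adjusted p = 0.000458), to 0.469 of the C57BL/6 level. This call held in all 6 fits that left out 1 array (highest adjusted p = 0.00894). In MRL/MpJ against C57BL/6 it fell by 0.60 (SE 0.132, adjusted p = 0.0163), to 0.66 of the level. That call was lost without C57BL/6 array 1 (adjusted p = 0.0708), C57BL/6 array 2 (0.0906) or MRL/MpJ array 1 (0.12). Between MRL/MpJ and AKR/N the log2 difference of 0.49 missed the threshold by a small margin (adjusted p = 0.05004). It passed without AKR/N array 1 (log2 difference 0.74, adjusted p = 0.00632).

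Rec8 encodes the meiotic kleisin, the part of the ring that separase cuts when homologues separate. Probe set 1419147_at read 323.0 and 299.9 in C57BL/6, 330.5 and 286.5 in AKR/N, and 189.0 and 218.6 in MRL/MpJ. The C57BL/6 and AKR/N arrays overlapped, and both MRL/MpJ arrays lay below all 4 of them. Rec8 had no other probe set, and how well its probes match the AKR/N and MRL/MpJ alleles was not tested. Rec8 fell by 0.58 in MRL/MpJ against C57BL/6 (SE 0.109, adjusted p = 0.0075) and by 0.56 against AKR/N (SE 0.109, adjusted p = 0.0123). Without MRL/MpJ array 1, the lowest of all, these became 0.0718 and 0.101 as adjusted p, and without AKR/N array 1 the second became 0.112. Between AKR/N and C57BL/6 the log2 difference was -0.02 (adjusted p = 0.956), with its sign turned without AKR/N array 2 (0.0825) or C57BL/6 array 1 (0.0355). The strain that stood lowest for Rec8 was thus not the one that stood lowest for Smc1b.

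Stag3 encodes the STAG protein that meiotic cohesin complexes use. Its probe set 1460229_at read 1742.4 and 1818.1 in C57BL/6, 1774.6 and 1793.3 in MRL/MpJ, and 1708.4 and 1547.0 in AKR/N. MRL/MpJ lay within the range of C57BL/6, and both AKR/N arrays were below the others by a small amount. The log2 differences were 0.00 in MRL/MpJ against C57BL/6 (adjusted p = 0.985), -0.13 in AKR/N against C57BL/6 (0.291) and 0.13 in MRL/MpJ against AKR/N (0.321). In the first of these the sign turned without C57BL/6 array 1 (-0.0271) or MRL/MpJ array 2 (-0.00421), and no array left out brought a call.

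**Figure D1:**
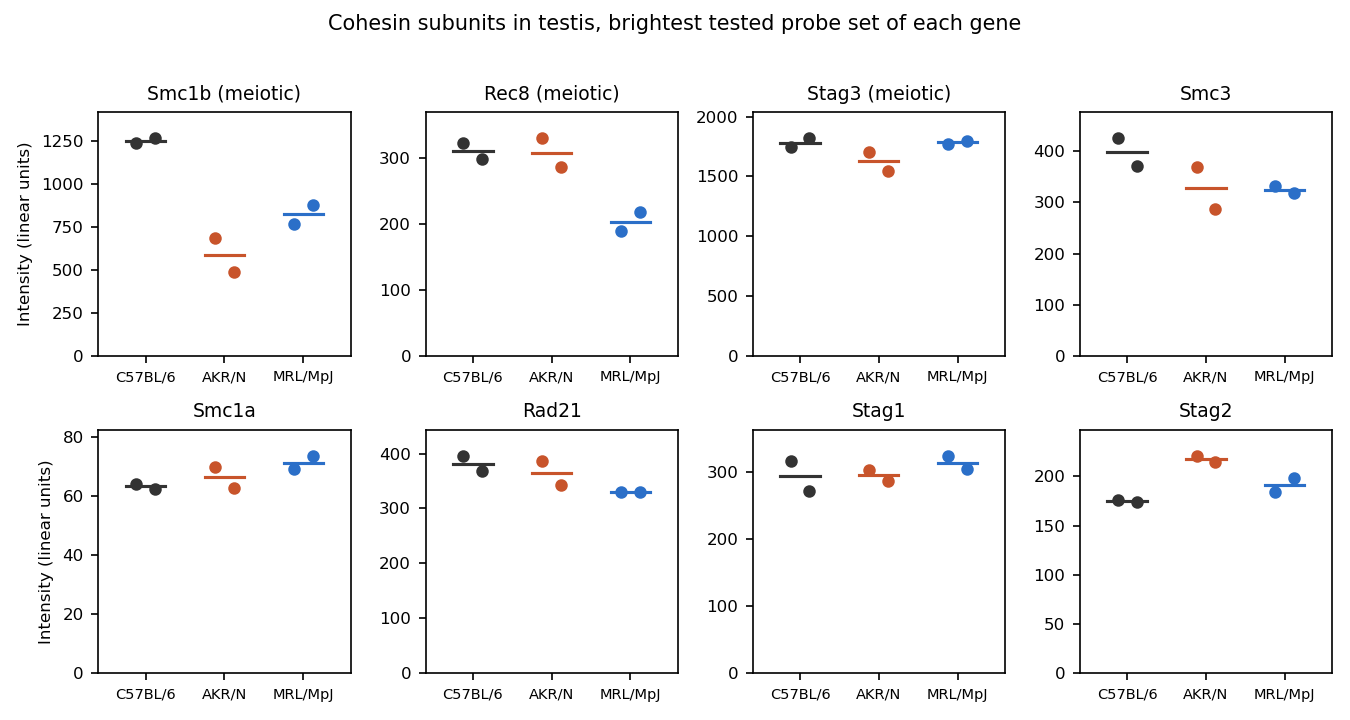
Linear intensity of the brightest tested probe set of each cohesin gene (vertical axes, each from 0) in the 3 strains, with 1 point per array and a line at the mean of 2. Smc1b falls from 1255 in C57BL/6 to 825 in MRL/MpJ and 588 in AKR/N, and Rec8 is low only in the 2 MRL/MpJ arrays; heights are not comparable between panels.

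Smc3 encodes the SMC protein that both the somatic and the meiotic rings contain. Probe set 1450950_at read 425.1 and 371.3 in C57BL/6, 369.1 and 287.0 in AKR/N, and 332.5 and 317.4 in MRL/MpJ. Both C57BL/6 arrays were above the other 4, the lower of them by a narrow margin, and the other strains overlapped. The log2 difference was -0.28 in either strain against C57BL/6 (SE 0.12; adjusted p = 0.184 in MRL/MpJ and 0.194 in AKR/N), and neither passed the test. Between MRL/MpJ and AKR/N it was -0.00, and positive without AKR/N array 1 (0.17) or MRL/MpJ array 2 (0.0287). A second, dim probe set, 1450951_at, read between 9.03 and 29.6 on the 6 arrays, with overlapping strains and differences of -0.29 and -0.22 against C57BL/6.

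Smc1a, on the X chromosome in the mouse, encodes the somatic counterpart of Smc1b. Its brightest probe set 1417830_at read 64.2 and 62.4 in C57BL/6, 69.7 and 62.9 in AKR/N, and 69.1 and 73.5 in MRL/MpJ. AKR/N overlapped both other strains, and both MRL/MpJ arrays were above both of C57BL/6 by a narrow margin. The log2 differences were 0.14 in MRL/MpJ and 0.05 in AKR/N against C57BL/6 (adjusted p = 0.617 and 0.878), and the second was -0.00754 without AKR/N array 1. Probe set 1417831_at read between 20.5 and 30.0 and gave differences of the same sign. The 1 member probe set left out of the test as too dim was 1417832_at, also of Smc1a. It read 3.6 and 2.9 in C57BL/6, 2.6 and 3.2 in AKR/N, and 16.5 and 28.6 in MRL/MpJ, so that both MRL/MpJ arrays were above the rest. Only 1 of its 6 values exceeded the 40th percentile of its array, which lay between 17.8 and 20.8. When no filter was applied, it was higher in MRL/MpJ by 0.98 against C57BL/6 (adjusted p = 0.0368) and by 1.01 against AKR/N (0.0447). The other Smc1a probe sets showed no such step.

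Rad21 encodes the mitotic kleisin, and its probe sets disagreed. The brightest on average, 1416162_at, read 395.5 and 368.2 in C57BL/6, 386.2 and 343.4 in AKR/N, and 329.3 and 329.1 in MRL/MpJ. MRL/MpJ was lowest, and its log2 difference from C57BL/6 was -0.20 (adjusted p = 0.206). AKR/N overlapped C57BL/6, with a difference of -0.06 (0.737) that was 0.0167 without AKR/N array 2. Probe set 1416161_at went the other way, with 237.5 and 211.9 in C57BL/6, 350.1 and 334.6 in AKR/N, and 351.9 and 376.1 in MRL/MpJ. Both C57BL/6 arrays lay well below the other 4. It rose by 0.66 in MRL/MpJ (SE 0.0953, adjusted p = 0.00154) and by 0.58 in AKR/N (SE 0.0953, adjusted p = 0.0035) against C57BL/6, and both calls held whichever array was left out (highest adjusted p = 0.0207 and 0.0385). Without the trend in the variance model, the AKR/N call was lost (adjusted p = 0.0567). The third probe set, 1455938_x_at, read 77.2 and 49.3 in C57BL/6, 111 and 105 in AKR/N, and 98.5 and 69.2 in MRL/MpJ. Its difference in AKR/N was 0.67 but missed the threshold (adjusted p = 0.0553), and MRL/MpJ overlapped C57BL/6. A level of Rad21 that holds for all 3 probe sets cannot be given, and with them averaged the differences from C57BL/6 were 0.265 in MRL/MpJ (adjusted p = 0.141) and 0.395 in AKR/N (0.0414).

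Stag1 and Stag2 encode the STAG proteins of somatic cohesin. The brightest of 6 Stag1 probe sets, 1431921_a_at, read 316.7 and 270.8 in C57BL/6, 302.8 and 286.9 in AKR/N, and 323.4 and 303.3 in MRL/MpJ. The strains overlapped, apart from MRL/MpJ and AKR/N, which were separated by a small gap. Its log2 differences were 0.09 in MRL/MpJ and 0.01 in AKR/N against C57BL/6, and 0.08 between MRL/MpJ and AKR/N. Without C57BL/6 array 2 the first was -0.015 and the second -0.0983, and the second was -0.0285 without AKR/N array 1. Across its 6 probe sets the differences ran from -0.24 to 0.56 in MRL/MpJ and from -0.11 to 0.65 in AKR/N, and none passed the test. The upper ends came from 1450420_at, which read 47.5 and 67.0 in C57BL/6, 110.4 and 86.6 in AKR/N, and 118.1 and 69.0 in MRL/MpJ (adjusted p = 0.0991 in AKR/N and 0.152 in MRL/MpJ). Stag2, at probe set 1450396_at, read 176.2 and 174.4 in C57BL/6, 220.7 and 214.6 in AKR/N, and 184.6 and 198.0 in MRL/MpJ. AKR/N was highest without overlap, by 0.29 over C57BL/6, yet short of the threshold (adjusted p = 0.104). A dimmer Stag2 probe set, 1421849_at, read between 59.8 and 77.1, with overlapping strains and a difference of -0.08 in AKR/N.

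Over all 18 tested member probe sets, 3 were called in MRL/MpJ against C57BL/6 (1 higher and 2 lower), beside 10% of all tested probe sets (2975 of 29692). In AKR/N against C57BL/6, 2 were called (1 higher and 1 lower), beside 9.97%, and in MRL/MpJ against AKR/N 1 was called, lower, beside 6.91%. These member shares were 16.7%, 11.1% and 5.56%. By the F test over all strains, 3 of 18 were called beside 15.1% of all, namely Smc1b (adjusted p = 0.000947), Rec8 (0.0068) and Rad21 probe set 1416161_at (0.00178). The median log2 difference of the 18 was 0.00961, 0.0305 and -0.0303 in the 3 comparisons, and that of all tested probe sets 0.0133, -0.00273 and 0.0152. Cohesin as a whole thus lay near the centre of all probe sets, with the calls in 3 of its 8 genes. Most of these probe sets were of shared and somatic genes: 15 of 18, with medians of 0.0919, 0.0665 and -0.0574 and 1, 1 and 0 called. The 3 meiotic ones had medians of -0.577, -0.13 and 0.133, with 2, 1 and 1 called. Without MRL/MpJ array 1, the member count was 1 in MRL/MpJ against C57BL/6 and 0 in MRL/MpJ against AKR/N.

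**Figure D2:**
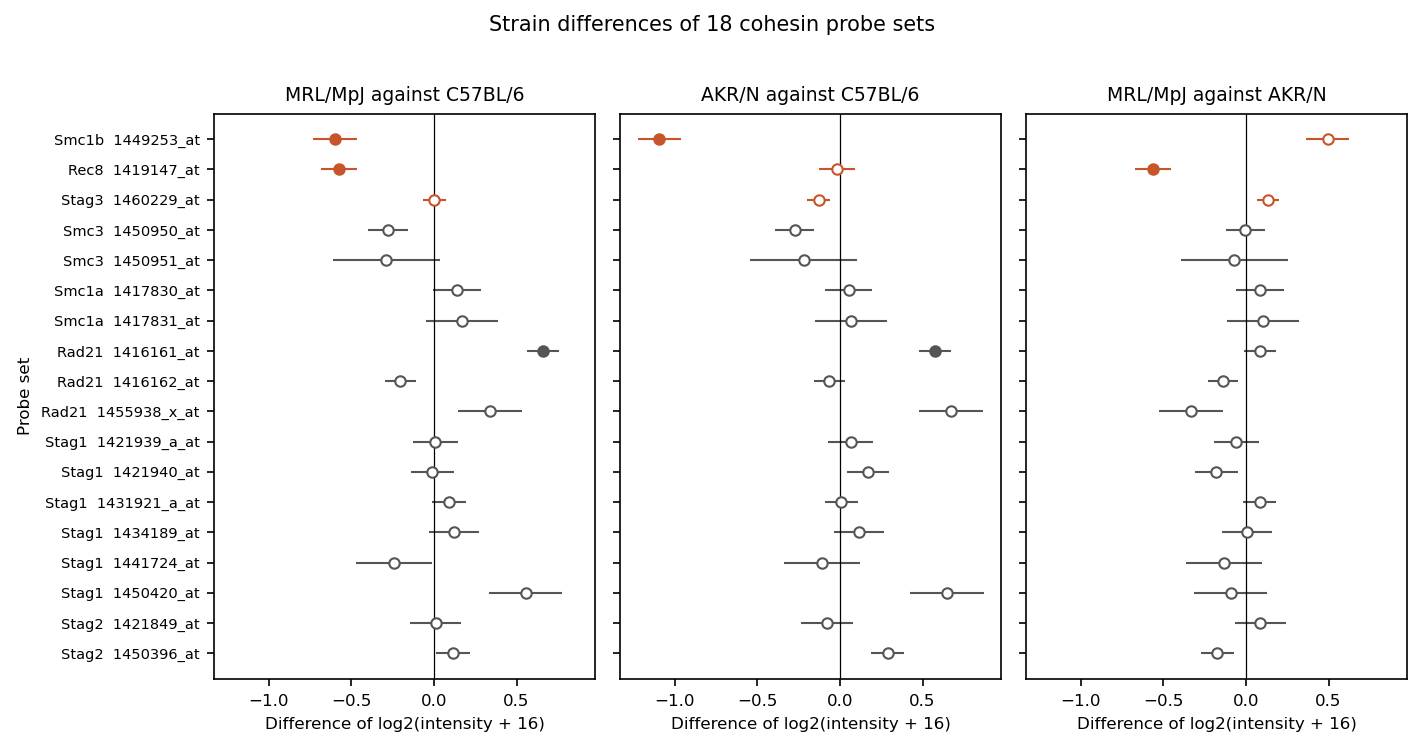
Difference of log2(intensity + 16) for 18 cohesin probe sets (rows) in the 3 strain comparisons (panels), with bars of 1 standard error; filled points passed the test and red marks the meiotic subunits. Smc1b lies at -1.09 in AKR/N against C57BL/6, and the 3 Rad21 probe sets fall on both sides of 0 in both comparisons with C57BL/6.

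Each meiotic subunit was then set against its somatic counterpart within each array, as the difference of their log2 values, which depends little on the scaling of the array. Different probe sets bind with different strength, so the height of such a difference has no meaning of its own and only its change between strains is described. With 2 arrays against 2, the exact permutation test (two-sided) cannot give a p below 0.333, so no pair can pass a threshold of 0.05. Smc1b minus Smc1a was 3.97 and 4.03 in C57BL/6, 3.20 and 3.32 in MRL/MpJ, and 3.04 and 2.68 in AKR/N. No strains overlapped, and the change of the mean from C57BL/6 was -0.738 in MRL/MpJ and -1.15 in AKR/N (exact permutation p = 0.333 in each). Over the fits without 1 array these ran from -0.798 to -0.678 and from -1.33 to -0.965. Smc1a itself differed from C57BL/6 by only 0.14 in MRL/MpJ and 0.05 in AKR/N. The changes of the difference thus largely restate those of Smc1b alone (-0.60 and -1.09).

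Rec8 minus Rad21 was -0.28 on both C57BL/6 arrays, -0.22 and -0.25 in AKR/N, and -0.75 and -0.56 in MRL/MpJ. MRL/MpJ changed by -0.374 from C57BL/6 and by -0.423 from AKR/N, without overlap (exact permutation p = 0.333). AKR/N was 0.049 above C57BL/6. With the Rad21 probe sets averaged, since they disagree, the changes from C57BL/6 became -0.843 in MRL/MpJ and -0.41 in AKR/N. Stag3 minus Stag1 overlapped between all strains (exact permutation p = 0.667 in each pair). Its change from C57BL/6 was -0.0887 in MRL/MpJ and -0.138 in AKR/N, and that from AKR/N to MRL/MpJ was 0.0494. With probe sets averaged, the change in AKR/N was -0.28. The sign of the first turned without C57BL/6 array 2 (0.0486) and that of the last without MRL/MpJ array 2 (-0.00201). Stag3 minus Stag2 was 3.19 and 3.27 in C57BL/6, 3.16 and 3.08 in MRL/MpJ, and 2.87 and 2.76 in AKR/N. AKR/N changed by -0.418 from C57BL/6 with no overlap (exact permutation p = 0.333), and MRL/MpJ lay 0.306 above AKR/N. With both Stag2 probe sets averaged these became -0.235 and 0.175, and the Stag2 difference itself 0.105, from 0.29.

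**Figure D3:**
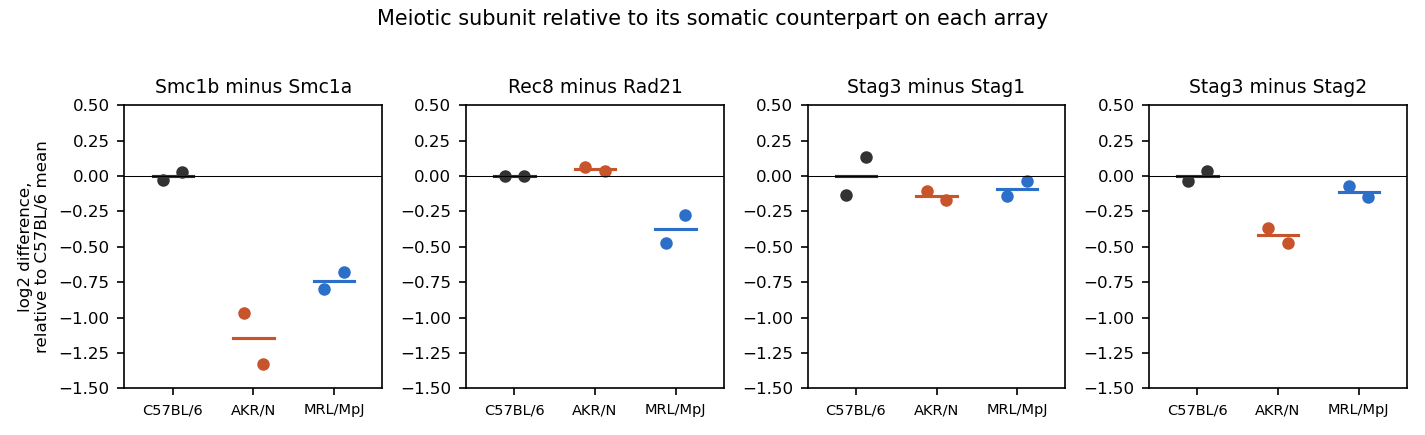
Log2 intensity of a meiotic subunit minus that of its somatic counterpart on each array (points, with lines at strain means), shown relative to the C57BL/6 mean of the same pair. Smc1b minus Smc1a lies at -1.15 in AKR/N and -0.738 in MRL/MpJ, whereas Stag3 minus Stag1 overlaps between strains.

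Cohesin is loaded, locked and released by other proteins, and 9 of 10 listed genes of this kind were tested. Against C57BL/6, 4 fell and 0 rose in AKR/N, beside 5.45% of all 14477 tested genes called lower and 6.33% higher. In MRL/MpJ against C57BL/6 none was called in either direction (all genes, 6.06% higher and 6.08% lower). In MRL/MpJ against AKR/N 2 rose and 0 fell (all genes, 3.65% higher and 5.05% lower). Here and in the lists below, each gene is counted by its brightest tested probe set. Dimmer probe sets of Mau2 were called in opposite directions in MRL/MpJ against C57BL/6 (1456492_at at -1.07, adjusted p = 0.0188, and 1451993_at at 0.89, 0.031). A dimmer probe set of Pds5b, 1436161_at, was called higher there (0.65, 0.0221). The list's median log2 difference was 0.0755 in MRL/MpJ and -0.156 in AKR/N against C57BL/6, and 0.187 between MRL/MpJ and AKR/N, where the medians of all tested genes were 0.0101, 0.00539 and 0.00676. The same shares of all genes stand behind every companion list below. Of 36 calls for companion genes, 7 remained without the variance trend, namely those of Wapl, E2f6 and Mybl1 and that of Sycp1 in AKR/N against C57BL/6.

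Wapl, which opens the ring and frees cohesin from chromatin, differed most among these. It read 783.8 and 800.2 in C57BL/6, 815.5 and 891.6 in MRL/MpJ, but 475.8 and 461.9 in AKR/N. Both AKR/N arrays lay far below the other 4. Wapl fell by 0.74 in AKR/N against C57BL/6 (SE 0.0768, adjusted p = 0.000164) and was 0.84 higher in MRL/MpJ than in AKR/N (adjusted p = 9.58e-05), and both calls held in each fit that left out an array. Both of its other tested probe sets had the same sign in these comparisons.

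Nipbl, the cohesin loader, read 1455.9 and 1451.3 in C57BL/6, 1342.5 and 1344.6 in MRL/MpJ, and 1237.4 and 1121.6 in AKR/N, an order without overlap that is also that of Smc1b. It fell by 0.30 in AKR/N against C57BL/6 (adjusted p = 0.0212). The call was lost without AKR/N array 2 (adjusted p = 0.186), C57BL/6 array 1 (0.0693) or C57BL/6 array 2 (0.0915). Of its 4 other tested probe sets, 3 shared the sign. Among these, 1430309_at (-0.60, adjusted p = 0.0373) and 1453576_at (-0.40, 0.0254) were called lower in AKR/N as well. The fourth, 1443992_at, was 0.70 higher in AKR/N (adjusted p = 0.0498) and 0.77 higher in MRL/MpJ (0.0345). With all averaged, the AKR/N difference was -0.19 (0.221).

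Pds5a, a partner of Wapl that also helps to keep cohesin locked, read 177.5 and 180.6 in C57BL/6, 196.4 and 189.1 in MRL/MpJ, and 119.5 and 121.0 in AKR/N. It fell by 0.52 in AKR/N against C57BL/6 (adjusted p = 0.0105) and was 0.61 higher in MRL/MpJ than in AKR/N (0.00596). The first call was lost without AKR/N array 1 (adjusted p = 0.066), AKR/N array 2 (0.0626) or C57BL/6 array 2 (0.0532), and the second without MRL/MpJ array 1 (0.055). Both of its other probe sets pointed the opposite way in AKR/N against C57BL/6, and with all averaged the differences were 0.0983 and -0.117, so the direction depends on the probe set.

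Esco1, an acetyltransferase that locks the ring through Smc3, read 402.7 and 389.7 in C57BL/6, 399.3 and 379.7 in MRL/MpJ, and 328.9 and 269.7 in AKR/N. It fell by 0.39 in AKR/N against C57BL/6 (adjusted p = 0.0369). Only the fit without AKR/N array 1 kept this call. Without AKR/N array 2 it was 0.257 as adjusted p, without C57BL/6 array 1 or 2 it was 0.116 or 0.114, and without MRL/MpJ array 1 or 2 it was 0.0553 or 0.0549. With its probe sets averaged the call was lost as well (-0.274, adjusted p = 0.214).

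Among 12 tested genes for the protection and cleavage of cohesin, 1 rose in MRL/MpJ and 1 rose and 1 fell in AKR/N against C57BL/6, and 1 was higher in MRL/MpJ than in AKR/N. Of all genes, 6.06% rose in MRL/MpJ, 6.33% rose and 5.45% fell in AKR/N, and 3.65% were higher in MRL/MpJ than in AKR/N. The list medians of 0.00832, 0.0651 and 0.0733 were near those of all genes. Some dimmer probe sets, which these counts leave out, were called lower against C57BL/6. They were Bub1 1438571_at in AKR/N (-0.96, adjusted p = 0.0296) and Ppp2r5c 1434206_s_at in AKR/N (-0.45, 0.00571) and MRL/MpJ (-0.32, 0.0323). Sgo2a, the shugoshin that shields Rec8 at the centromeres in the first meiotic division, read 171.6 and 183.7 in C57BL/6, 173.8 and 181.5 in MRL/MpJ, and 134.5 and 99.8 in AKR/N. Both AKR/N arrays were below all others. Sgo2a fell by 0.55 against C57BL/6 (adjusted p = 0.0272) and MRL/MpJ was 0.55 above AKR/N (0.0355). The first was lost without AKR/N array 2 (adjusted p = 0.199), C57BL/6 array 1 (0.0638) or C57BL/6 array 2 (0.14). The second was lost without AKR/N array 2 (0.253), MRL/MpJ array 1 (0.127) or MRL/MpJ array 2 (0.177).

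The called gene that rose in this list was Ppp2r5a, a regulatory subunit of the phosphatase that works with shugoshin. It read 39.6 and 39.8 in C57BL/6, 59.3 and 81.4 in AKR/N, and 78.6 and 74.3 in MRL/MpJ, with C57BL/6 lowest. It rose by 0.73 in MRL/MpJ (adjusted p = 0.0204) and by 0.62 in AKR/N (0.0428). The MRL/MpJ call was lost without C57BL/6 array 1 (0.0671), C57BL/6 array 2 (0.072), MRL/MpJ array 1 (0.118) or MRL/MpJ array 2 (0.0841). In AKR/N it was lost without any one array but AKR/N array 1, with adjusted p from 0.0641 to 0.294. The other Ppp2r5a probe set, 1440189_at, did not rise with it, at -0.62 in MRL/MpJ and 0.01 in AKR/N (0.425 and 0.993). With the probe sets averaged neither call remained (0.0542 and 0.315, adjusted p = 0.919 and 0.481), and a pseudocount of 64 reduced the differences to 0.437 and 0.369. Separase, Espl1, and its inhibitor securin, Pttg1, did not pass the test in any comparison.

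The related SMC complexes were measured by 14 tested genes of condensin and SMC5/6. In AKR/N against C57BL/6, 3 fell and 1 rose, in MRL/MpJ against C57BL/6 1 rose and 1 fell, and in MRL/MpJ against AKR/N 3 were higher and 0 lower (medians -0.176, 0.053 and 0.0757 in the same order). The shares of all genes were 5.45% lower and 6.33% higher, 6.06% higher and 6.08% lower, and 3.65% higher and 5.05% lower. Smc6, of the SMC5/6 complex that acts in DNA repair, read 1122.3 and 1030.8 in C57BL/6, 1043.1 and 1093.7 in MRL/MpJ, and 807.7 and 688.1 in AKR/N. AKR/N was low and the other strains overlapped. All dimmer Smc6 probe sets were also lower in AKR/N than in C57BL/6, and of these 1448829_at was called (-0.66, adjusted p = 0.011). In MRL/MpJ against AKR/N, 1448829_at was 0.89 higher (0.00315), while 1460069_at was at -0.02 (0.985). Smc6 fell by 0.52 against C57BL/6 (adjusted p = 0.00401), a call that held whichever array was left out but was lost with its probe sets averaged (-0.304, adjusted p = 0.0635). It was 0.51 higher in MRL/MpJ than in AKR/N (0.00658), which was lost without AKR/N array 2 (0.0735) or MRL/MpJ array 2 (0.0599).

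Smc4, a core protein of both condensins, read 2600.0 and 2655.0 in C57BL/6, 2632.1 and 2781.5 in MRL/MpJ, and 2133.1 and 1853.1 in AKR/N, again lowest without overlap. It fell by 0.40 against C57BL/6 (adjusted p = 0.00682) and was 0.44 higher in MRL/MpJ than in AKR/N (0.00571). The first call was lost without AKR/N array 2 (0.0793) or C57BL/6 array 2 (0.0549), the second without AKR/N array 2 (0.0698) or MRL/MpJ array 2 (0.0532). Its partner Smc2 was 0.44 higher in MRL/MpJ than in AKR/N (adjusted p = 0.0419), which only the fit without AKR/N array 1 kept (others 0.0517 to 0.293). A second Smc2 probe set, 1429659_at, pointed the other way (-0.73, adjusted p = 0.236), and the average of the probe sets was 0.056 (0.898). The dimmer Smc4 probe set 1427275_at was called like the brightest, at -0.46 in AKR/N against C57BL/6 (adjusted p = 0.00689) and 0.41 in MRL/MpJ against AKR/N (0.0169). Smc4 probe set 1427276_at had the same signs (-0.32 and 0.52, adjusted p = 0.149 and 0.0355).

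Ncapg and Ncapd2, both subunits of condensin I, differed from C57BL/6 in opposite directions. Ncapg read 283.9 and 357.8 in C57BL/6, 476.5 and 458.6 in AKR/N, and 438.8 and 491.2 in MRL/MpJ. It rose by 0.53 in AKR/N (adjusted p = 0.0129) and by 0.52 in MRL/MpJ (0.0141). Its other probe set, 1429172_a_at, was also called higher in both (0.54, adjusted p = 0.0115, and 0.58, 0.00763). Ncapd2 read 393.5 and 475.1 in C57BL/6, 319.4 and 312.6 in AKR/N, and 328.8 and 337.5 in MRL/MpJ, and it fell by 0.43 (0.0209) and by 0.36 (0.0465). In both genes C57BL/6 stood apart from the other strains. The Ncapg call in AKR/N was lost without AKR/N array 1 (0.0905), AKR/N array 2 (0.0675) or C57BL/6 array 1 (0.0634), and that in MRL/MpJ without C57BL/6 array 1 (0.0744) or MRL/MpJ array 2 (0.109). The Ncapd2 call in AKR/N was lost without AKR/N array 1 (0.0943), AKR/N array 2 (0.122) or C57BL/6 array 2 (0.137), and that in MRL/MpJ without any one array but C57BL/6 array 1 (0.0725 to 0.231). With the Ncapd2 probe sets averaged neither call remained (-0.272 and -0.295, adjusted p = 0.195 and 0.154).

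Synaptonemal complex and HORMA domain proteins sit on the axes that meiotic cohesin builds, and 10 listed genes were tested. Against C57BL/6, 2 rose in MRL/MpJ, and 1 rose and 2 fell in AKR/N, and 4 were higher in MRL/MpJ than in AKR/N with none lower (medians 0.055, 0.00793 and 0.144). The shares of all genes were 6.06% higher in MRL/MpJ, 6.33% higher and 5.45% lower in AKR/N, and 3.65% higher in MRL/MpJ than in AKR/N. Sycp1, the transverse filament, read 1279.4 and 1185.8 in C57BL/6, 975.3 and 923.5 in MRL/MpJ, and 691.0 and 465.0 in AKR/N. No strains overlapped, in the same order as for Smc1b. Sycp1 fell by 1.10 in AKR/N against C57BL/6 (SE 0.141, adjusted p = 0.000716), which held whichever array was left out, and its difference of -0.37 in MRL/MpJ did not pass (0.134). It was 0.73 higher in MRL/MpJ than in AKR/N (0.0121), lost without MRL/MpJ array 1 (0.0796) or MRL/MpJ array 2 (0.0584). Sycp2, of the axis, fell by 0.60 in AKR/N (0.00829), lost without C57BL/6 array 1 (0.0546), and was 0.62 higher in MRL/MpJ than in AKR/N (0.00916), lost without MRL/MpJ array 1 (0.0681). Other members went differently: Syce2, of the central element, rose by 0.38 in AKR/N (0.00343) and by 0.27 in MRL/MpJ (0.0204), the latter lost without C57BL/6 array 2 (0.125), MRL/MpJ array 1 (0.0712) or MRL/MpJ array 2 (0.105). Hormad1 rose by 0.89 in MRL/MpJ against C57BL/6 (0.00459), with 849.5 and 652.5 against 426.1 and 365.2, and was 0.59 higher in MRL/MpJ than in AKR/N (0.0464), lost in 4 of 6 fits that left out an array (0.0582 to 0.318). Sycp3, an axis protein, read 1605.8 and 1525.5 in C57BL/6, 1638.7 and 1360.2 in AKR/N, and 2111.9 and 1795.0 in MRL/MpJ. It was 0.38 higher in MRL/MpJ than in AKR/N (0.0461), which only the fits without AKR/N array 1 or MRL/MpJ array 2 kept (others 0.0636 to 0.328).

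**Figure D4:**
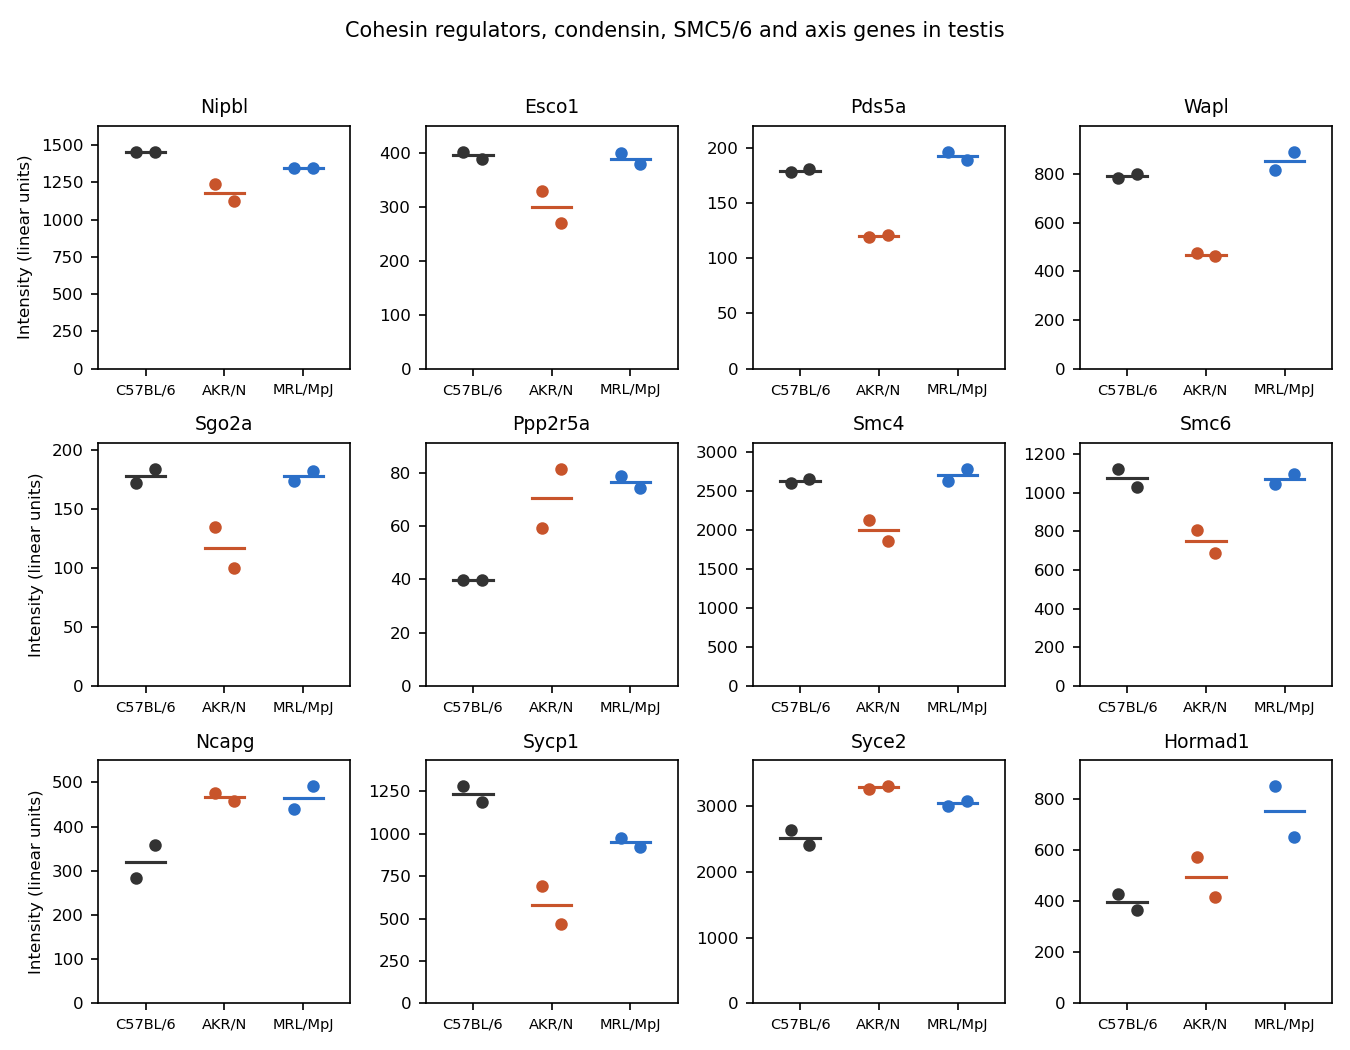
Linear intensity (vertical axes, each from 0) of 12 genes that act with cohesin, picked for the panels after their values were seen, with 1 point per array and a line at the mean of 2 in each strain. In Wapl both AKR/N arrays lie below all others, at 475.8 and 461.9, and in Ppp2r5a, Ncapg, Syce2 and Hormad1 they do not. Heights are not comparable between panels.

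Meiotic genes are held silent in other cells by PRC1.6, a Polycomb complex that E2f6 and the Max-Mga pair bring to promoters with E2F6 and E-box letters. All 9 listed genes were tested: 2 rose in MRL/MpJ and 1 in AKR/N against C57BL/6, 2 were higher in MRL/MpJ than in AKR/N, and none was lower in any comparison (medians 0.0468, -0.18 and 0.0835). E2f6, by its probe set 1448835_at, read 33.6 and 30.3 in C57BL/6, 100.4 and 101.5 in AKR/N, and 119.1 and 77.3 in MRL/MpJ. Both C57BL/6 arrays lay far below the other 4, while AKR/N fell within the range of MRL/MpJ. E2f6 rose by 1.29 in AKR/N (SE 0.182, adjusted p = 0.00135) and by 1.23 in MRL/MpJ (SE 0.182, adjusted p = 0.0018), and both calls held in all fits that left out an array (highest adjusted p = 0.0178 and 0.0194). With a pseudocount of 64 the differences were 0.782 and 0.746 and still called. Against C57BL/6, the meiotic subunits differed in AKR/N and MRL/MpJ by -1.09 and -0.60 (Smc1b), -0.02 and -0.58 (Rec8), and -0.13 and 0.00 (Stag3). Any part of E2f6 in these levels was not tested.

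Pcgf6, the subunit that defines this Polycomb complex, read 1040.7 and 936.8 in C57BL/6, 881.4 and 876.8 in AKR/N, and 1259.7 and 1154.6 in MRL/MpJ, highest in the last. It was 0.45 higher in MRL/MpJ than in AKR/N (adjusted p = 0.00678), lost without AKR/N array 1 (0.0509), AKR/N array 2 (0.0615) or MRL/MpJ array 1 (0.0655). Against C57BL/6 it rose by 0.28 in MRL/MpJ (0.0435), a call that only the fit without C57BL/6 array 1 kept (others 0.0727 to 0.245). Rnf2, its ubiquitin ligase, was 0.43 higher in MRL/MpJ than in AKR/N (0.0157), lost without AKR/N array 1 (0.105), AKR/N array 2 (0.0811) or MRL/MpJ array 1 (0.13). With probe sets averaged, the Pcgf6 calls were lost (0.127 against C57BL/6 and 0.229 against AKR/N, adjusted p = 0.365 and 0.128), as was that of Rnf2 (0.294, 0.109).

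Of 7 tested activators of meiotic genes, each counted by its brightest probe set, 1 rose in MRL/MpJ against C57BL/6. By the same probe sets, 2 were higher in MRL/MpJ than in AKR/N, with 0 called in AKR/N against C57BL/6 (medians 0.0934, -0.027 and 0.104 in the order above). Mybl1, the transcription factor that drives many pachytene genes, read 56.1 and 85.7 in C57BL/6, 53.9 and 55.8 in AKR/N, and 461.0 and 412.9 in MRL/MpJ. The MRL/MpJ arrays stood far above all 4 others. Mybl1 was higher there by 2.40 against C57BL/6 (SE 0.16, adjusted p = 7.44e-06) and by 2.67 against AKR/N (SE 0.16, adjusted p = 4.83e-06), in every fit that left out an array. A second probe set, 1450481_at, was also higher in both comparisons, by 1.56 against C57BL/6 (adjusted p = 0.00049 and, against AKR/N, 0.00066). Dazl, a translational regulator of germ cells, was 0.46 higher in MRL/MpJ than in AKR/N (0.0432), which only the fit without AKR/N array 1 kept (others 0.0587 to 0.266). A dimmer Dazl probe set, 1449502_at, was called lower in AKR/N than in C57BL/6 (-0.52, adjusted p = 0.0114). It was also called higher in MRL/MpJ than in AKR/N (0.40, adjusted p = 0.0472). Stra8, which starts meiosis in response to retinoic acid, and Tcfl5, a transcription factor of spermatocytes, were not called in any comparison (Tcfl5 at 0.03, 0.01 and 0.03, adjusted p = 0.785, 0.963 and 0.873).

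**Figure D5:**
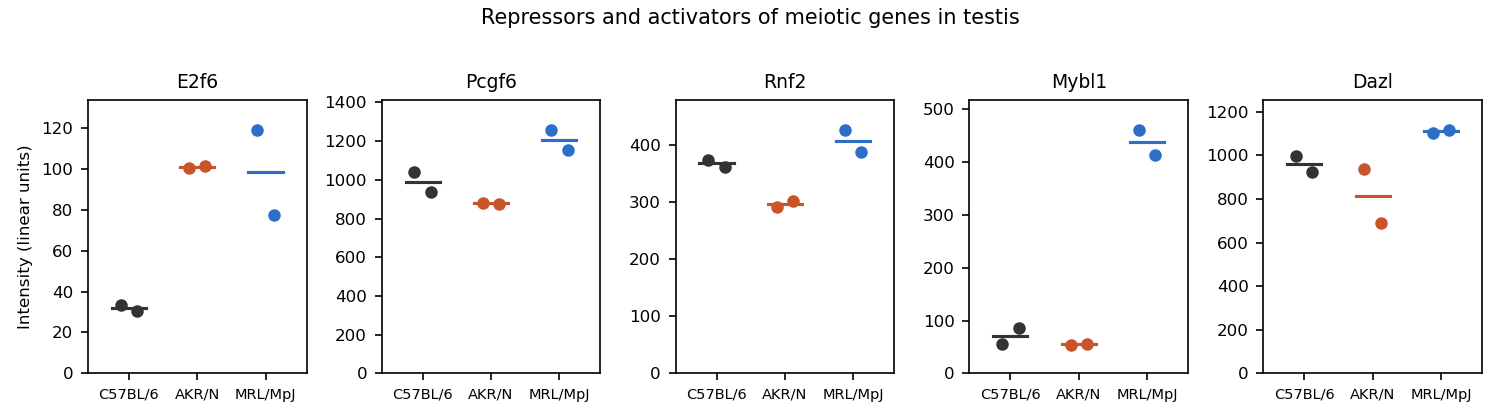
Linear intensity (vertical axes, each from 0) of repressors (E2f6, Pcgf6, Rnf2) and activators (Mybl1, Dazl) of meiotic genes, with 1 point per array and a line at the mean of 2. E2f6 is low only in C57BL/6 (33.6 and 30.3), and Mybl1 is high only in MRL/MpJ (461.0 and 412.9); heights are not comparable between panels.

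Likeness to Smc1b was described by Pearson's r of log2 values over the 6 arrays, among 2074 genes with a mean intensity over 100 that the F test called. These points share the same 6 arrays in 3 strains, so r is a description. The most alike were Nme1, a nucleoside diphosphate kinase (r = 0.995), Tbl3 (0.992), Zfp711 (0.987), Klhl8 (0.986) and D130037M23Rik (0.985). Nme1 read 424 and 445 in C57BL/6, 354 and 368 in MRL/MpJ, and 328 and 289 in AKR/N, the same order as Smc1b. The most opposite were Stambp, a deubiquitinase (-0.996), and Ssbp1, a mitochondrial DNA-binding protein (-0.992). Among genes named above, r with Smc1b was 0.975 for Nipbl, 0.957 for Sycp1, 0.803 for Stag3, 0.782 for Smc3 and 0.152 for Rec8. It was -0.148 for Smc1a, -0.837 for Ppp2r5a, -0.855 for Stag2, -0.867 for E2f6 and -0.91 for Syce2. The other called PRC1.6 genes, Pcgf6 and Rnf2, stood at 0.259 and 0.525.

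Some marker genes of testis cells moved with strain as well, and their part in the cohesin differences was not tested. Of all 14477 tested genes, 6.06% were called higher and 6.08% lower in MRL/MpJ against C57BL/6. In AKR/N against C57BL/6 these shares were 6.33% and 5.45%, and in MRL/MpJ against AKR/N 3.65% and 5.05%. They stand behind every marker count below. Elongating spermatid markers, checked against the labelled tissue, had a summed intensity between 54620 and 68529 on the 6 arrays. Of these 10, 3 were lower in MRL/MpJ than in C57BL/6 and 2 lower than in AKR/N with none higher, and 1 rose and 1 fell in AKR/N against C57BL/6. Early meiotic markers summed to between 3346 and 3474 in C57BL/6, 2921 and 3359 in AKR/N, and 3782 and 4307 in MRL/MpJ. Of these 10, 2 rose and 1 fell in MRL/MpJ and 1 rose and 1 fell in AKR/N against C57BL/6. Spo11, which makes the meiotic breaks, fell by 0.77 in AKR/N (adjusted p = 0.000112) and by 0.43 in MRL/MpJ (0.00512). Meiob, which acts in the repair of those breaks, rose by 0.81 in AKR/N (0.000673) and by 0.69 in MRL/MpJ (0.00186). In MRL/MpJ against AKR/N, 4 early meiotic markers were higher and none lower, namely Spo11 (0.34), Dmc1 (0.67), Hormad1 and Sycp3. Hormad1 and Sycp3 are also in the synaptonemal complex and HORMA domain list, so they are counted in both. Of 9 spermatogonial markers, 1 rose in either strain against C57BL/6. Pachytene markers summed to between 24890 and 25814 in C57BL/6, 23060 and 23897 in AKR/N, and 23757 and 26098 in MRL/MpJ. Against C57BL/6, 2 of 10 were lower in AKR/N, and 1 was higher and 1 lower in MRL/MpJ. In MRL/MpJ against AKR/N, 3 were higher and none lower, among them Mybl1, which is also in the list of activators. In MRL/MpJ, 5 of 11 round spermatid markers were lower than in C57BL/6 and none higher, with sums of 14977 to 15225 against 17136 to 18703, and 6 were lower than in AKR/N. Leydig cell markers rose in 4 of 5 genes in both AKR/N and MRL/MpJ, with sums of 3321 to 3417 in C57BL/6, 5414 to 5938 in AKR/N and 5478 to 5676 in MRL/MpJ. Of 9 Sertoli cell markers, 4 rose and 1 fell in AKR/N and none was called in MRL/MpJ against C57BL/6, and no marker of peritubular muscle (5 tested), macrophages (6) or endothelium (4) was called in any comparison. Fat markers summed to between 151 and 177 in C57BL/6, 261 and 538 in AKR/N, and 241 and 253 in MRL/MpJ, with 2 of 3 higher in AKR/N and 1 in MRL/MpJ. Blood markers summed to between 92.4 and 104 in C57BL/6 and 124 and 134 in the other strains, with 1 of 2 higher in both. Epididymis markers summed to 79.5 and 107 in C57BL/6 and to between 16.1 and 34.5 in the other strains, and 1 of 2 tested, Rnase10, fell in both, with log2 differences of -1.58 in MRL/MpJ (adjusted p = 0.00222) and -1.87 in AKR/N (0.00075).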

How the data were processed

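Total RNA of mouse testes was measured on 6 arrays, 1 per sample, grouped by the strain in the labels. The authors deposited linear intensity values per probe set, and per the labels' protocols RNA was extracted with Trizol and labelled with biotin after one-cycle cDNA synthesis. With the outer 2% of values at each end removed, every array averaged 125.001. For summary software, detection calls and genome build, the sources used here give nothing. The number of arrays limits the precision.

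Of 45101 probe sets, 64 controls were left out, and 29692 with at least 2 of 6 arrays above the 40th percentile of their array were tested as log2(intensity + 16), which understates changes of dim genes. Strain means were fitted on all 6 arrays (limma 3.58.1, R 4.3.3; eBayes with a variance trend, 3 residual and 7.58 prior degrees of freedom) and adjusted by Benjamini-Hochberg over all. The fit was tested on simulated data. A gene's tested probe set with the highest mean stands for it. Some companion genes, among them Sgo2a, Sycp1 and E2f6, had no other tested probe set. How well probes match the alleles of each strain was not tested for any gene. Within-array differences were compared with exact permutation tests (scipy 1.17.1). Named were all members, up to 4 called genes per companion list and comparison or the 2 brightest where none was called (in lists of up to 10, others could be named too), and the 5 genes most like and 2 least like Smc1b; Espl1, Pttg1, Stra8 and the marker genes Spo11, Meiob, Dmc1 and Rnase10 were added for their roles after their values were seen. Bub1 and Ppp2r5c were named for called probe sets other than their brightest, also after their values were seen. The members and the lists were chosen with earlier results of these data known. Alternatives changed the scaling, filter, pseudocount, variance model, arrays fitted, probe sets of a gene and replicate block, or left out an array. Log2 values correlated between arrays of a strain at 0.98 to 0.985 and between strains at 0.96 to 0.974.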

Additional observations from a re-analysis of the deposited data

How the results depend on the processing

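Of the 4 gene-level calls for cohesin subunits, 1 held in all 6 fits that left out 1 array (Smc1b in AKR/N against C57BL/6), and of 36 calls for companion genes 10 did. Of the 36, 7 remained without the variance trend and 22 with probe sets averaged. The cause of these losses was not tested, and 2 arrays per strain leave 1 against 2 in such fits, where the lone array is assumed to vary like the others. The cohesin count of 3, 2 and 1 (MRL/MpJ against C57BL/6, AKR/N against C57BL/6, MRL/MpJ against AKR/N) ranged over these fits from 1 to 4, 2 to 3 and 0 to 1, and that of all probe sets from 1483 to 2545, 1290 to 2607 and 694 to 2191. Without the variance trend the cohesin counts were 1, 1 and 0 and those of all 1212, 1138 and 421, and Smc1b and Rec8 in MRL/MpJ against C57BL/6 had adjusted p of 0.145 and 0.0772. With no filter, MRL/MpJ against AKR/N gave 1327 calls, and 2 cohesin calls with the dim Smc1a probe set. A filter at the 60th percentile, a pseudocount of 64 and quantile normalization each gave 2 cohesin calls there. Counts were not recomputed with probe sets averaged, which counts genes instead.

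Signs turned, without a call in either fit, in Rec8 (0.027, AKR/N against C57BL/6) and Smc3 (0.00087, MRL/MpJ against AKR/N) with arrays centred on the median, and in Stag1 with quantile normalization (-0.00126, AKR/N against C57BL/6) or averaged probe sets (-0.0622, MRL/MpJ against AKR/N). Averaged probe sets also turned Rad21 (0.265 in MRL/MpJ and 0.395, called, in AKR/N against C57BL/6), Rec8 minus Rad21 (-0.41) and Pds5a (0.0983 and -0.117). With 1 array left out, the ranges that crossed 0 were -0.113 to 0.0825 (Rec8), -0.146 to 0.0167 (Rad21), -0.00754 to 0.112 (Smc1a) and -0.0983 to 0.115 (Stag1) in AKR/N against C57BL/6, -0.0271 to 0.0336 (Stag3), -0.015 to 0.199 (Stag1) and -0.226 to 0.0486 (Stag3 minus Stag1) in MRL/MpJ against C57BL/6, and -0.176 to 0.17 (Smc3) and -0.00201 to 0.101 (Stag3 minus Stag1) in MRL/MpJ against AKR/N.

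Arrays with the same replicate number deviated together weakly (r from 0.0425 to 0.0493). With 2 arrays per strain, replicates 1 and 2 give the same r, so each pair of strains gives a single value. The labels state no pairing, and none was taken in the main fit. With the replicate block the counts of all probe sets rose from 2975, 2960 and 2052 to 3510, 3492 and 2549. The counts of cohesin probe sets were 3, 3 and 2, and the Smc1b difference between MRL/MpJ and AKR/N passed the threshold (adjusted p = 0.0392). Whether arrays of the same number share an effect was not tested further.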
